A study of Mus musculus with 8 samples.

Results

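The Hox genes of mouse colon are described here across 8 RNA sequencing libraries, 4 from mice with colitis caused by dextran sulfate sodium (DSS) and 4 from such mice that were also given GAA, which is ganoderic acid A, a compound of Ganoderma fungi. Members are the genes of the deposited table whose symbol is Hox followed by a cluster letter from a to d and a paralogue number, which gave 31 of 18262 genes. The table held 11 Hoxa, 9 Hoxb, 3 Hoxc and 8 Hoxd genes, and members of the clusters that it does not list were not analysed here. All libraries came from colon of mice labelled WT, and every mouse had received DSS, a polymer that damages the colonic epithelium. The GAA dose is 20 mg/kg in the protocol, while the treatment labels of the 4 GAA libraries read 20, 21, 22 and 23 mg/kg, and these were kept as 1 group. Strain, sex, age, the DSS schedule and which stretch of the colon was sampled are not given in the sources used here, and colon without colitis was not analysed here. Nothing in the labels states that the libraries come from different animals, and p-values here measure no more than the spread between samples. Values are TPM, a transcript abundance corrected for transcript length and scaled to the same total in each library, so levels of different genes can be compared within a library and sequencing depth is unknown. Values by library are given in the order of replicates 1, 2, 4 and 5 of each group.

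Hox genes encode homeodomain transcription factors that give cells their position along the head-to-tail axis. They lie in 4 clusters, and their order within a cluster follows the order in which they are used along the body. Low paralogue numbers are used towards the head and the highest, paralogue 13, at the tail end, which in the gut is the distal colon and rectum. Adult gut keeps much of this code, in epithelium as well as in the muscle and connective tissue around it. Hox proteins bind DNA together with TALE homeodomain partners of the Pbx and Meis families, and Polycomb and Trithorax complexes hold the genes silent or active.

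Most Hox genes that passed the test were lower in DSS + GAA colon, and the exception was a paralogue 13 gene. Of 27 Hox genes that could be tested, 13 fell, 1 rose and 13 did not pass (limma on log2(TPM + 1), Benjamini-Hochberg adjusted p under 0.05 over all tested genes). Over all 14217 tested genes, 28.2% were called lower and 5.96% higher by the same rule (34.1% in either direction), against 48.1% and 3.70% of the Hox genes. The median log2 fold change was -0.51 over the 27 Hox genes and -0.25 over all tested genes. The 13 that fell were Hoxa4, Hoxa5, Hoxb2 to Hoxb6, Hoxc4, Hoxd3 and Hoxd8 to Hoxd11, and the 1 that rose was Hoxa13. The same 14 genes had groups that did not overlap, lower for 13 and higher for 1, where all tested genes gave 27.6% and 5.31%. The other 4 Hox genes had too few libraries at 1 TPM or more. Among them, Hoxb8 lay between 0.557 and 1.11 TPM in all libraries. Hoxc5 stayed at or below 0.339 TPM, and Hoxc6 was listed at 0 in 5 libraries and at or below 0.072 TPM in the others.

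The count depended on how libraries were scaled to each other. Trimmed mean scaling moved that median from -0.25 to -0.0040, the Hox calls to 4 lower and 4 higher, and the calls over all genes from 4006 lower and 847 higher to 1648 lower and 1890 higher. Quantile normalization gave 3 lower and 2 higher Hox genes, with 1601 lower and 1677 higher over all 14217 tested genes. Median centring gave 4 lower and 4 higher Hox genes, with 1308 lower and 2165 higher over all. Hoxa4, Hoxb3 and Hoxd9 were among the lower genes under each of these 3 scalings, and Hoxa13 among the higher ones. Leaving out DSS replicate 1 left 5 lower genes of 27 Hox genes, and 1921 of 14282 over all genes. Leaving out replicate 2 of DSS + GAA left 8 of 29 Hox genes, and 2474 of 14399 over all genes. DSS + GAA replicate 1 stood apart from its group. Its median Pearson's r with the group was 0.933 across genes, which are not independent replicates, against 0.973 to 0.978 for the others. Without that library 16 of 29 Hox genes fell and 3 rose, where 4572 of all 14382 tested genes fell and 1308 rose.

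**Figure D1:**
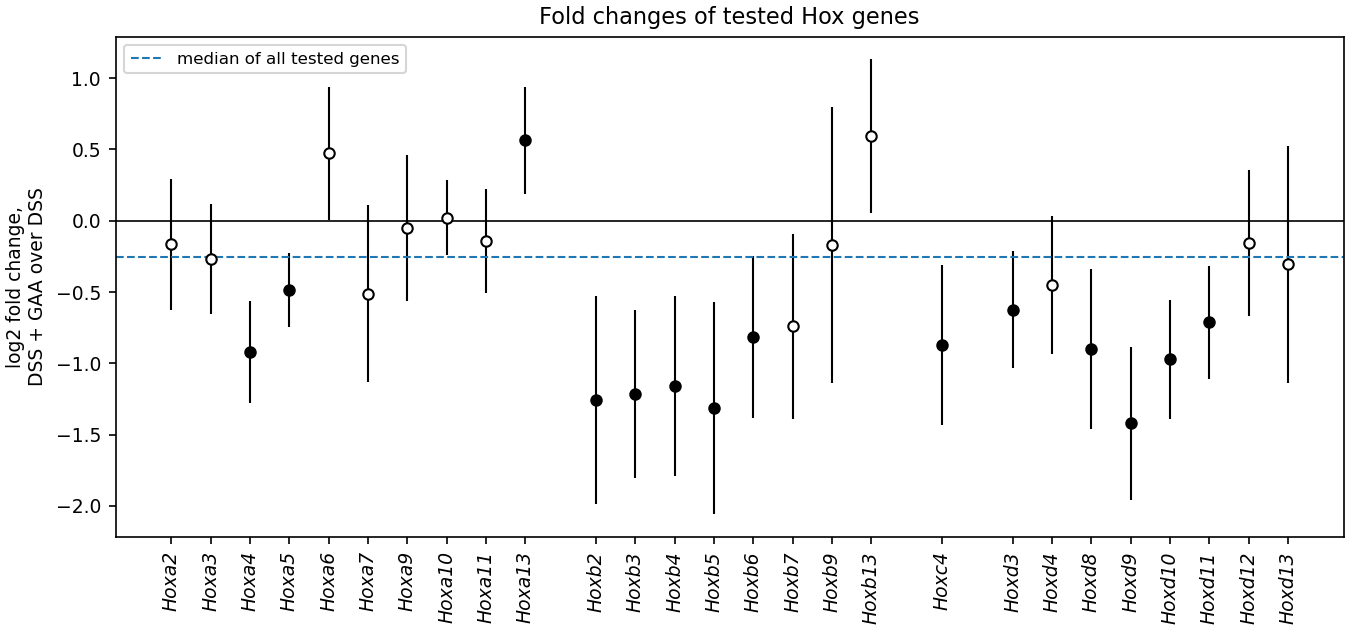
Log2 fold change of DSS + GAA over DSS on the log2(TPM + 1) scale (y axis) for the 27 tested Hox genes, by cluster and paralogue number (x axis). Points are limma estimates from 4 libraries per group, bars are 95% confidence intervals, filled points have an adjusted p under 0.05, and the dashed line is the median of all tested genes at -0.25. Hoxb2 to Hoxb7 lie between -1.31 and -0.74, while Hoxa13 and Hoxb13 lie at 0.57 and 0.59.

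Paralogue 13 held the highest levels of the family. In the DSS group the order of mean TPM began with Hoxb13, Hoxa13 and Hoxd13. Hoxa13, which shapes hindgut, limb and genital tract, measured 85.2, 59.8, 84 and 87.9 TPM in the DSS libraries and 93.5, 114, 124 and 139 TPM in the DSS + GAA libraries. Every DSS + GAA library lay above every DSS library, the nearest being 93.5 against 87.9 TPM. The means went from 79.2 ± 13.1 to 118 ± 18.9 TPM (SD, n = 4 per group), 1.48 times the DSS mean (log2 fold change 0.57 ± 0.17, standard error; limma adjusted p = 0.0293; chromosome 6, 52257694 to 52260880, minus strand). This call was lost in 6 of the 8 fits that left out a library, namely DSS replicates 1, 2 and 4 and replicates 2, 4 and 5 of DSS + GAA, with limma adjusted p from 0.0511 to 0.0685.

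Hoxb13, a gene of distal colon, rectum and prostate, measured 103, 114, 97 and 90.1 TPM in the DSS libraries and 89.2, 158, 183 and 207 TPM in the DSS + GAA libraries (chromosome 11, 96194316 to 96197447, plus strand). Of the DSS + GAA libraries, 3 lay above every DSS library and replicate 1 lay below all of them. Its log2 fold change of 0.59 ± 0.24 did not pass (limma adjusted p = 0.0836, 95% interval 0.052 to 1.13). Without DSS + GAA replicate 1 it was 0.85 (limma adjusted p = 0.00179), and it also passed under trimmed mean scaling (0.86, limma adjusted p = 0.0306), median centring (limma adjusted p = 0.0292) and array quality weights (limma adjusted p = 0.00606). Hoxd13, which patterns digits and the hindgut sphincter region, measured 58.9, 87.8, 54.5 and 70.4 TPM in the DSS libraries and 39.7, 37.8, 42.8 and 129.6 TPM in the DSS + GAA libraries (chromosome 2, 74668310 to 74671599, plus strand). In DSS + GAA, 3 libraries lay below every DSS library, and replicate 5 lay above all of them. The log2 fold change was -0.31 ± 0.37 (limma adjusted p = 0.546, 95% interval -1.14 to 0.53), and -0.72 without DSS + GAA replicate 5 (limma adjusted p = 0.0231). The 3 paralogues thus gave 1 call between them on all libraries, and their intervals overlapped. In the authors' deposited table, Hoxa13 (false discovery rate 0.0181), Hoxb13 (0.00945) and Hoxa6 (0.0277) are the 3 Hox genes called higher, with 11 called lower.

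The bases just before the start sites are shown for 4 of these genes, to set Hoxa13 and Hoxd13 beside Hoxb4 and Hoxd10, which fell. Each line gives the 250 bases before the RefSeq start on GRCm38.p6, 5′ to 3′ on the gene's strand, with CpG dinucleotides in capitals. Their places are chr6:52260881-52261130, minus strand for Hoxa13, chr2:74667975-74668224, plus strand for Hoxd13, chr11:96318017-96318266, plus strand for Hoxb4 and chr2:74691641-74691890, plus strand for Hoxd10.
Hoxa13: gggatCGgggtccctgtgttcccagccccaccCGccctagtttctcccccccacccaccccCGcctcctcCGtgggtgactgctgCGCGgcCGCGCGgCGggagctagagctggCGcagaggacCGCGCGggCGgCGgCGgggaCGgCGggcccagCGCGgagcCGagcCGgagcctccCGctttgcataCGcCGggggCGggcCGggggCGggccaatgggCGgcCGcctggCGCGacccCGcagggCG
Hoxd13: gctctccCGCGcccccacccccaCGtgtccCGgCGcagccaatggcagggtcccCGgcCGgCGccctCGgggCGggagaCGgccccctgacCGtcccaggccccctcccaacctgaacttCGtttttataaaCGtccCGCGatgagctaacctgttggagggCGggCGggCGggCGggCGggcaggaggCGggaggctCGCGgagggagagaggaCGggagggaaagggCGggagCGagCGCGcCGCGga
Hoxb4: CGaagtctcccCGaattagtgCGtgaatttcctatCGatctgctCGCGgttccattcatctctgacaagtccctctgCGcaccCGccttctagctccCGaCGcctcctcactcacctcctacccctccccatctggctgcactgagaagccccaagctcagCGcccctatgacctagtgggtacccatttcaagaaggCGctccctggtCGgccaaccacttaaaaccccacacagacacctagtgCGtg
Hoxd10: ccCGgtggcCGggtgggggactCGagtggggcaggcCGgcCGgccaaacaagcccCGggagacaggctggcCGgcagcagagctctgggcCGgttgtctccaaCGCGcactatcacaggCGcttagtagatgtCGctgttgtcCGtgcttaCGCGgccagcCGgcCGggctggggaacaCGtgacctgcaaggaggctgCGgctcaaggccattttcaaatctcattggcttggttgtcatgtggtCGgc
CpG dinucleotides numbered 35 before Hoxa13 and 31 before Hoxd13, and 14 and 20 before Hoxb4 and Hoxd10. Hoxa5, which fell too, had 28, and Hoxd11, another that fell, had 2 and 20 in its pair of windows. Hoxd13 was not called in either direction. With 1 Hox gene called higher, these windows cannot show whether the number goes with direction, and this was not tested. Over 32536 different windows of this length in the table, the median was 6, and 3.0% held at least 35. The 22 Hox windows, from 20 of the 31 genes, had a median of 12.5. The motif TTTATNG, read on both strands and close to the sites that Cdx and tail-end Hox proteins bind, was in 2 of the 22 Hox windows (Hoxb8 and Hoxd4) and in 9.74% of all windows. The TATA box letters TATAAA, also read on both strands, were in 4 of the 22 and in 12.3% of all. They stood before Hoxd13 at bases -124 to -119 on the gene's strand and at -126 to -121 on the other strand. Matches of the 2 motifs can overlap each other, and a match is a match of letters only.

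Among paralogues 9 to 12, 3 of 8 tested genes fell, near the 28.2% of all tested genes, and all 3 were Hoxd genes. Hoxd9 had the largest fall of the tested Hox genes, with 4.21, 6.27, 2.29 and 3.56 TPM in the DSS libraries and 0.79, 0.822, 0.572 and 1.16 TPM in the DSS + GAA libraries (chromosome 2, 74697727 to 74700208, plus strand). Its highest DSS + GAA library was at 1.16 TPM and its lowest DSS library at 2.29 TPM, and the DSS mean was 4.89 times that of DSS + GAA (log2 fold change -1.42 ± 0.24, limma adjusted p = 0.00585). Its DSS libraries alone met the filter of 1 TPM in 4 libraries. Replicates 1, 2 and 4 of DSS + GAA lay under 1 TPM, so the Hoxd9 call is read with that limit. Hoxd10, active in the lumbar spinal cord and hindlimb, measured 15, 17.5, 11.8 and 11.5 TPM in the DSS libraries and 8.1, 6.43, 4.94 and 6.88 TPM in the DSS + GAA libraries. Its lowest DSS library, at 11.5 TPM, lay above its highest DSS + GAA library, at 8.1 TPM (log2 fold change -0.97 ± 0.19, limma adjusted p = 0.00757). For Hoxd11, a limb and kidney gene, the libraries measured 5.2, 4.46, 4.47 and 3.81 TPM in the DSS libraries and 2.98, 1.69, 2.09 and 2.75 TPM in the DSS + GAA libraries (log2 fold change -0.71 ± 0.18, limma adjusted p = 0.0159). Hoxd11 lost its call under trimmed mean scaling, quantile normalization and median centring, and when DSS replicate 1 or DSS + GAA replicate 2 was left out, and Hoxd10 under quantile normalization (limma adjusted p = 0.0518).

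The Hoxa and Hoxb genes of this class and Hoxd12 did not pass, with intervals that held changes in both directions. Hoxa10, best known from uterus and blood progenitors, went from 37.3 ± 3.16 to 37.9 ± 3.6 TPM, the fold change nearest to 0 of the tested Hox genes (log2 fold change 0.020, 95% interval -0.24 to 0.28, limma adjusted p = 0.905). Hoxa9, a blood progenitor gene, went from 28.7 ± 4.77 to 28.3 ± 8.39 TPM (95% interval of the log2 difference -0.56 to 0.46), and Hoxa11 from 31.5 ± 3.65 to 28.8 ± 5.81 TPM (-0.51 to 0.22). Of the exon bases of Hoxa11, 35.0% are shared with an antisense transcript, Hoxa11os, and the labels do not say whether strand was kept, so their reads cannot be told apart. Hoxb9 had the largest standard error of the tested Hox genes, with 37.2, 37.6, 27.9 and 25.5 TPM in the DSS libraries and 9.93, 27.7, 40.6 and 52.4 TPM in the DSS + GAA libraries (95% interval -1.14 to 0.80). Its mean TPM was slightly higher in DSS + GAA while its log2 fold change, -0.17, was below 0. Replicate 1 was the lowest DSS + GAA library for each of Hoxa9, Hoxa10, Hoxa11, Hoxa13, Hoxb9 and Hoxb13. Hoxd12 was near the limit of the filter (0.772 to 2.27 TPM over all libraries). The signs of Hoxa9, Hoxa11, Hoxb9 and Hoxd12 turned under each of the 3 other scalings, and Hoxa10 passed as higher under trimmed mean scaling and median centring.

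Among paralogues 5 to 8, 4 of 7 tested genes fell, again against 28.2% of all tested genes. Hoxa5, which acts in lung and gut development, was the highest Hox gene after paralogue 13 in DSS, with 40.9, 46.7, 37 and 37.6 TPM in the DSS libraries and 27.8, 30.1, 30.4 and 26.2 TPM in the DSS + GAA libraries. Its groups did not overlap, though the fall was small, from 40.5 ± 4.45 to 28.6 ± 1.99 TPM (log2 fold change -0.48 ± 0.12, limma adjusted p = 0.0142). This call was lost under each of the 3 other scalings, and held in all 8 fits that left out a library. Hoxb5, which enteric neural crest cells use, measured 20.3, 20.6, 17.1 and 14.1 TPM in the DSS libraries and 12.8, 7.78, 3.05 and 5.73 TPM in the DSS + GAA libraries and had the largest fall of the Hoxb cluster (log2 fold change -1.31 ± 0.33, limma adjusted p = 0.0171; chromosome 11, 96303336 to 96306121, plus strand). All 4 DSS + GAA libraries lay below the lowest DSS library, replicate 4 the furthest. Hoxd8 measured 5.44, 3.37, 3.48 and 3.62 TPM in the DSS libraries and 3.1, 1.67, 0.951 and 1.26 TPM in the DSS + GAA libraries (log2 fold change -0.90 ± 0.25, limma adjusted p = 0.0237), and Hoxb6, outside the 12 genes with the smallest p, went from 3.9 ± 0.131 to 1.94 ± 1.08 TPM (limma adjusted p = 0.0344). Hoxb5 lost its call under the 3 other scalings and when DSS replicate 1 was left out, Hoxd8 in 7 of 20 alternatives and Hoxb6 in 10 of 20.

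The remaining tested genes of this class were Hoxa6, Hoxa7 and Hoxb7. Hoxa6 was the sole tested gene of paralogues 1 to 8 with a fold change above 0, with 3.19, 3.52, 2.56 and 4.49 TPM in the DSS libraries and 3.5, 5.15, 5.78 and 6.31 TPM in the DSS + GAA libraries. In DSS + GAA 3 libraries lay above every DSS library, and replicate 1 lay within the DSS range (log2 fold change 0.47 ± 0.21, limma adjusted p = 0.104). Its call was higher under the 3 other scalings (limma adjusted p from 0.0301 to 0.0398) and without DSS + GAA replicate 1 (limma adjusted p = 0.0259). Hoxa7 (26.6 ± 3.84 to 19.4 ± 7.33 TPM; limma adjusted p = 0.177) shares 20.4% of its exon bases with an antisense transcript, and Hoxb7 (4.63 ± 0.603 to 2.6 ± 1.58 TPM; limma adjusted p = 0.0728) passed as lower without DSS + GAA replicate 1 (limma adjusted p = 0.00748).

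Of 9 tested genes of paralogues 1 to 4, 6 fell, where 28.2% of all tested genes did. All 9 had fold changes below 0, as did 10152 of all 14217 genes. Hoxa4 measured 5.14, 4.17, 3.83 and 3.62 TPM in the DSS libraries and 2.07, 1.92, 1.43 and 1.55 TPM in the DSS + GAA libraries (chromosome 6, 52189671 to 52191753, minus strand). Its lowest DSS library lay above its highest DSS + GAA library, 3.62 against 2.07 TPM (log2 fold change -0.92 ± 0.16, limma adjusted p = 0.00619). Hoxa4, Hoxb3 and Hoxd9 kept their calls in every alternative in which they were tested, 20 for Hoxa4 and Hoxd9 and 21 for Hoxb3. Of these, Hoxd9 lay under 1 TPM in DSS + GAA replicates 1, 2 and 4.

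Hoxb2, Hoxb3 and Hoxb4, neighbours on chromosome 11, fell by similar amounts. Hoxb2, a hindbrain gene, measured 11.5, 7.97, 8.4 and 10.0 TPM in the DSS libraries and 5.73, 5.53, 1.85 and 1.82 TPM in the DSS + GAA libraries (log2 fold change -1.26 ± 0.32, limma adjusted p = 0.0182). Hoxb3 measured 15.5, 12.6, 11.2 and 14.7 TPM in the DSS libraries and 8.7, 6.39, 3.82 and 3.25 TPM in the DSS + GAA libraries (log2 fold change -1.22 ± 0.26, limma adjusted p = 0.0105). Hoxb4, which expands blood stem cells when overexpressed, measured 13.5, 12.1, 12 and 9.6 TPM in the DSS libraries and 8.83, 5.33, 3.33 and 2.92 TPM in the DSS + GAA libraries (log2 fold change -1.16 ± 0.28, limma adjusted p = 0.0151). In each of the 3 genes replicate 1 was the highest DSS + GAA library, and replicates 4 and 5 were the lower ones. Of their exon bases, 52.9% of Hoxb3 and 27.3% of Hoxb2 are shared with the antisense transcript Hoxb3os, and none of Hoxb4. Neither Hoxb2 nor Hoxb4 passed under the 3 other scalings or when DSS replicate 1 was left out.

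Lower in level, Hoxc4 measured 3.57, 2.75, 2.95 and 2.99 TPM in the DSS libraries and 2.47, 1.52, 0.508 and 0.833 TPM in the DSS + GAA libraries (log2 fold change -0.87 ± 0.25, limma adjusted p = 0.027). Hoxd3 measured 2.47, 1.66, 1.78 and 1.96 TPM in the DSS libraries and 1.4, 1.13, 0.52 and 0.735 TPM in the DSS + GAA libraries (log2 fold change -0.62 ± 0.18, limma adjusted p = 0.0283). Both have groups that do not overlap but values near the filter of 1 TPM, and each lost its call in 9 of 20 alternatives. Of the exon bases, 62.9% of Hoxd3 and 52.3% of Hoxd4 are shared with other annotated genes, so their reads may be split. The other 3 tested genes did not pass. They were Hoxa2, which patterns the hindbrain and face (6.08 ± 0.726 to 5.45 ± 1.75 TPM), Hoxa3, which patterns thymus and neck (6.88 ± 0.283 to 5.64 ± 1.26 TPM), and Hoxd4 (2.15 ± 0.459 to 1.35 ± 0.707 TPM). The signs of Hoxa2 under the 3 other scalings, and of Hoxa3 under quantile normalization and median centring, were the opposite.

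**Figure D2:**
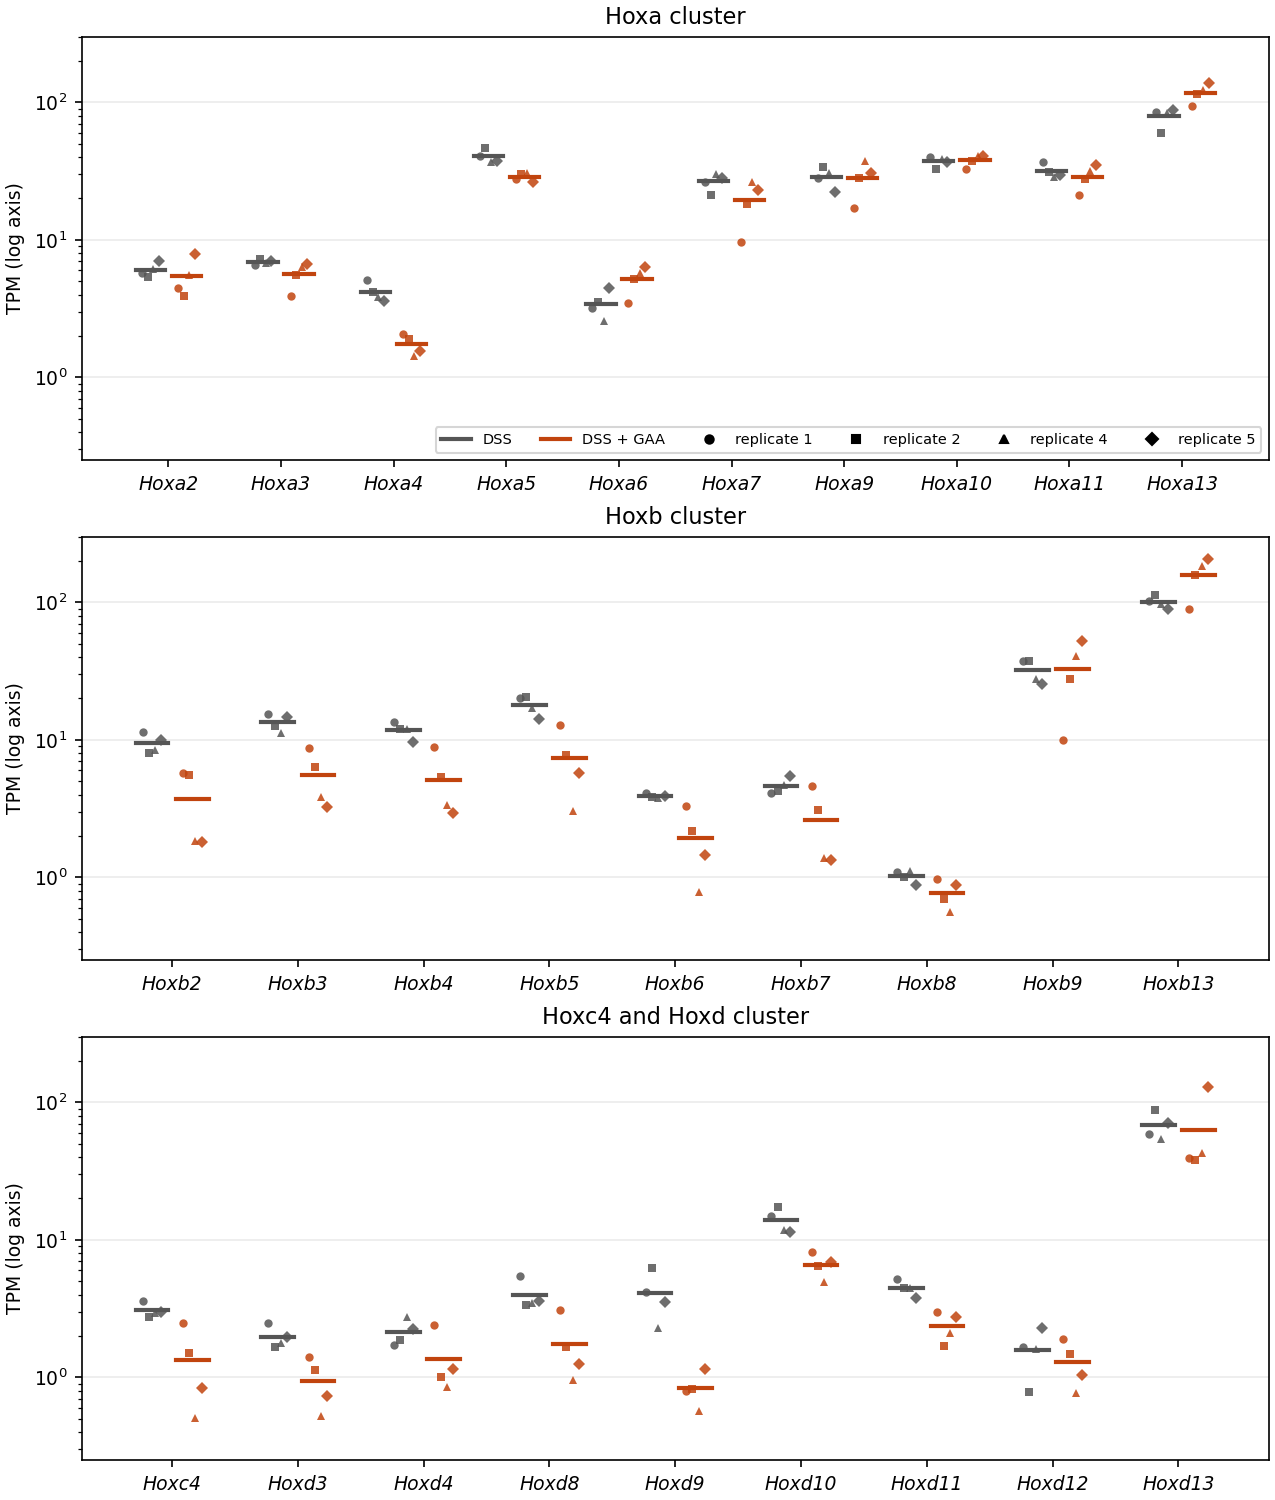
TPM on a log axis (y axis) of 28 of the 31 Hox genes in order of cluster and paralogue number (x axis). Each point is 1 library (grey, DSS; orange, DSS + GAA; the symbol gives the replicate number) and horizontal lines are group means; Hoxc5 and Hoxc6, at or below 0.339 TPM, are among those left out. Hoxb2 to Hoxb6 show every orange point below the grey ones, while Hoxa13 shows every orange point above them and Hoxd13 has a single high orange point at 129.6 TPM.

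By cluster, Hoxb and Hoxd held most of the genes that fell, and differences between clusters were not tested. Over all tested genes 28.2% were called lower and 5.96% higher, and the Hoxa count of lower genes did not exceed this share. Under trimmed mean scaling the Hox genes called lower were Hoxa4, Hoxb3, Hoxd9 and Hoxd10. In the Hoxa cluster (chromosome 6, 52155590 to 52260880) 2 of 10 tested genes fell and 1 rose, with a median log2 fold change of -0.15. In the Hoxb cluster (chromosome 11, 96194316 to 96354012) 5 of 8 fell, with a median of -0.99, and in the Hoxd cluster (chromosome 2, 74668310 to 74748442) 5 of 8 fell, with a median of -0.67. The sole tested Hoxc gene, Hoxc4 on chromosome 15, fell. Across the 8 tested Hoxb genes, Spearman's rho between paralogue number and log2 fold change was 0.86, across the 10 Hoxa genes 0.60, across the 8 Hoxd genes 0.33 and across all 27 genes 0.46. These values describe genes that share libraries and neighbours, and paralogue number also went with level (rho 0.42 over the 27 genes).

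Shares within a library are not changed by a factor applied to the whole library. Summed over the 31 genes, Hox TPM was 589, 587, 538 and 543 in the DSS libraries and 423, 544, 602 and 739 in the DSS + GAA libraries, with the groups overlapping. The paralogue 13 share of that sum was 42, 44.5, 43.8 and 45.7 in the DSS libraries and 52.5, 57, 58.1 and 64.3 in the DSS + GAA libraries, in percent. Every DSS + GAA library lay above every DSS library, and the mean went from 44 ± 1.57 to 58 ± 4.87 percent. Paralogues 1 to 4 went the other way, from 10.7 ± 0.788 to 5.84 ± 2.67 percent, and paralogues 5 to 8 from 18.2 ± 0.31 to 12.2 ± 2.73 percent, both with groups that did not overlap. For paralogues 9 to 12 the share went from 27.2 ± 1.57 to 24 ± 1.71 percent, with overlap. The ratio of summed paralogue 13 TPM to that of paralogues 1 to 8 was 1.42, 1.62, 1.5 and 1.56 in the DSS libraries and 2.09, 3.04, 3.71 and 5.08 in the DSS + GAA libraries. Shares of 1 sum are tied to each other, so a higher share of 1 class lowers those of the others. The share of 64.3 percent in DSS + GAA replicate 5 includes the high Hoxd13 value of that library, 129.6 TPM. Sums over members carry no test here.

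In absolute TPM, the sum of paralogues 1 to 4 went from 60.3 ± 5.12 to 31.3 ± 6.96, and that of paralogues 5 to 8 from 102 ± 3.59 to 67.7 ± 1.94, with no overlap in either. The paralogue 13 sum, 247, 261, 235 and 248 in the DSS libraries and 222, 310.2, 349.6 and 475 in the DSS + GAA libraries, overlapped through DSS + GAA replicate 1.

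**Figure D3:**
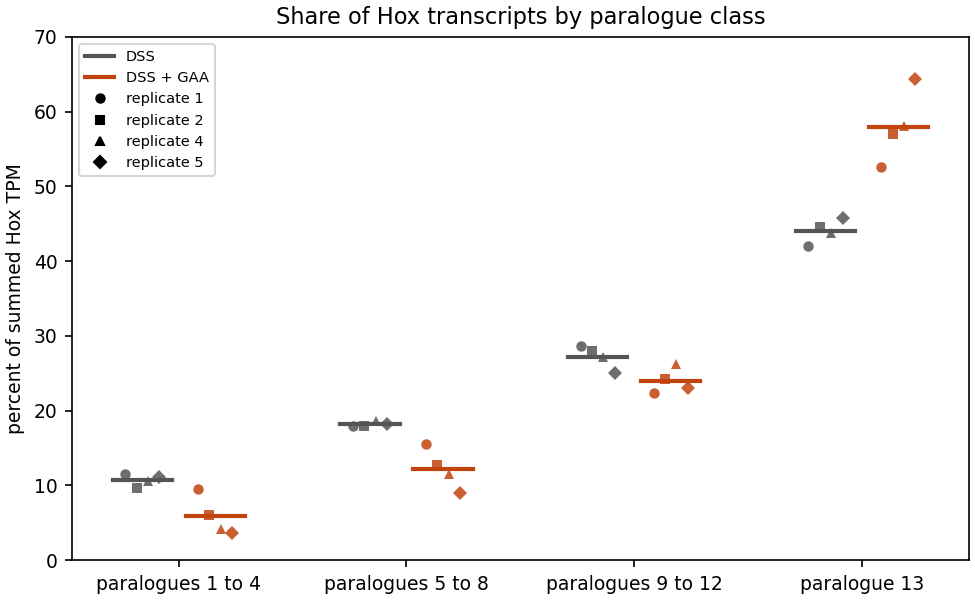
Percent of the summed TPM of the 31 Hox genes (y axis) that each paralogue class held (x axis), with 1 point per library (grey, DSS; orange, DSS + GAA; the symbol gives the replicate number) and lines at group means. Paralogue 13 held 42.0 to 45.7% in DSS and 52.5 to 64.3% in DSS + GAA, and paralogues 1 to 4 and 5 to 8 held less in each DSS + GAA library than in any DSS library.

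The DSS + GAA libraries also differed among themselves. Of the 6 genes Hoxb2 to Hoxb7, all 6 were highest in DSS + GAA replicate 1 within that group. Of Hoxa9, Hoxa10, Hoxa11, Hoxa13, Hoxb9 and Hoxb13, all 6 were lowest in it. This second set leaves out the Hoxd genes, of which Hoxd10, Hoxd11 and Hoxd12 were highest in that library. Over all 8 tested genes of paralogues 9 to 12, DSS + GAA replicate 1 was highest for 3 and lowest for 4. Within the DSS group, replicate 1 was highest for 4 of the first 6 genes and lowest for 0 of the second 6.

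Lists of cell type markers differed in how far they moved between the groups. Their counts stand against 28.2% of all tested genes lower and 5.96% higher. The fibroblast count was near the share called lower, and the smooth muscle and leukocyte counts were below it, with sums that overlapped between the groups. In bulk tissue, fewer cells of a type and less RNA per cell cannot be told apart. Of 12 fibroblast genes, 11 could be tested, 4 fell and 0 rose, and their summed level was 1662 to 4772 TPM over the DSS libraries against 422 to 1463 TPM after GAA. The fall covered 7 genes when DSS + GAA replicate 1 was left out. Dcn, the matrix proteoglycan decorin, went from 1789 ± 1032 to 331 ± 181 TPM. Of 12 enteric neuron and glia genes, 11 fell and 0 rose (949 to 1795 TPM over the DSS libraries against 185 to 548 TPM after GAA), with Vip, a neuropeptide gene, going from 866 ± 298 to 165 ± 87.7 TPM. Of 12 endothelial genes, 11 fell and 0 rose (198 to 311 TPM over the DSS libraries against 52 to 187 TPM after GAA), and 2 fell without DSS replicate 1 and 4 or 5 under the 3 other scalings. Of 12 smooth muscle genes, 1 fell and 1 rose (2124 to 5587 TPM over the DSS libraries against 1689 to 4049.9 TPM after GAA), and of 12 leukocyte genes 1 fell and 1 rose (372 to 473 TPM over the DSS libraries against 184 to 642 TPM after GAA); without DSS + GAA replicate 1, 3 and 4 of these fell. Of 13 epithelial genes, 4 rose and 0 fell (15814 to 19484 TPM over the DSS libraries against 24824 to 26522 TPM after GAA), among them the brush border gene Vil1 (429 ± 113 to 992 ± 151 TPM), with 1 rising when DSS + GAA replicate 2 was left out, 2 when replicate 4 of that group or replicate 1 of DSS was, and 9 under median centring. No marker in these 6 lists was at 0 in all libraries.

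Relative to the DSS mean, the mean log2(TPM + 1) of the 11 fibroblast genes was -0.17, -0.77, -1.76 and -1.77 in DSS + GAA replicates 1, 2, 4 and 5, and that of the 12 neuron and glia genes -0.81, -1.42, -2.15 and -2.13. The 9 tested genes of paralogues 1 to 4 gave -0.42, -0.67, -1.05 and -0.94, and the 3 of paralogue 13 -0.22, 0.13, 0.29 and 0.93. The 13 epithelial genes gave 0.48, 0.48, 0.30 and 0.25. In each of the first 3 lists replicate 1 was nearest to DSS and replicates 4 and 5 were furthest from it. The 12 endothelial genes gave -0.39, -0.97, -1.94 and -1.41. Smooth muscle genes gave 0.21, -0.13, -0.80 and -0.63, and leukocyte genes 0.63, 0.12, -0.70 and -1.02. These lists too were highest in replicate 1 and lowest in replicates 4 and 5, so the order is not particular to fibroblast and neuron genes. Within DSS, replicates 1, 2, 4 and 5 gave 0.44, -0.19, 0.30 and -0.55 for the fibroblast genes. The neuron and glia genes gave 0.27, 0.17, -0.13 and -0.31 there, and paralogues 1 to 4 gave 0.11, -0.08, -0.034 and 0.0051. The part of these cell types in the Hox values was not tested.

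**Figure D4:**
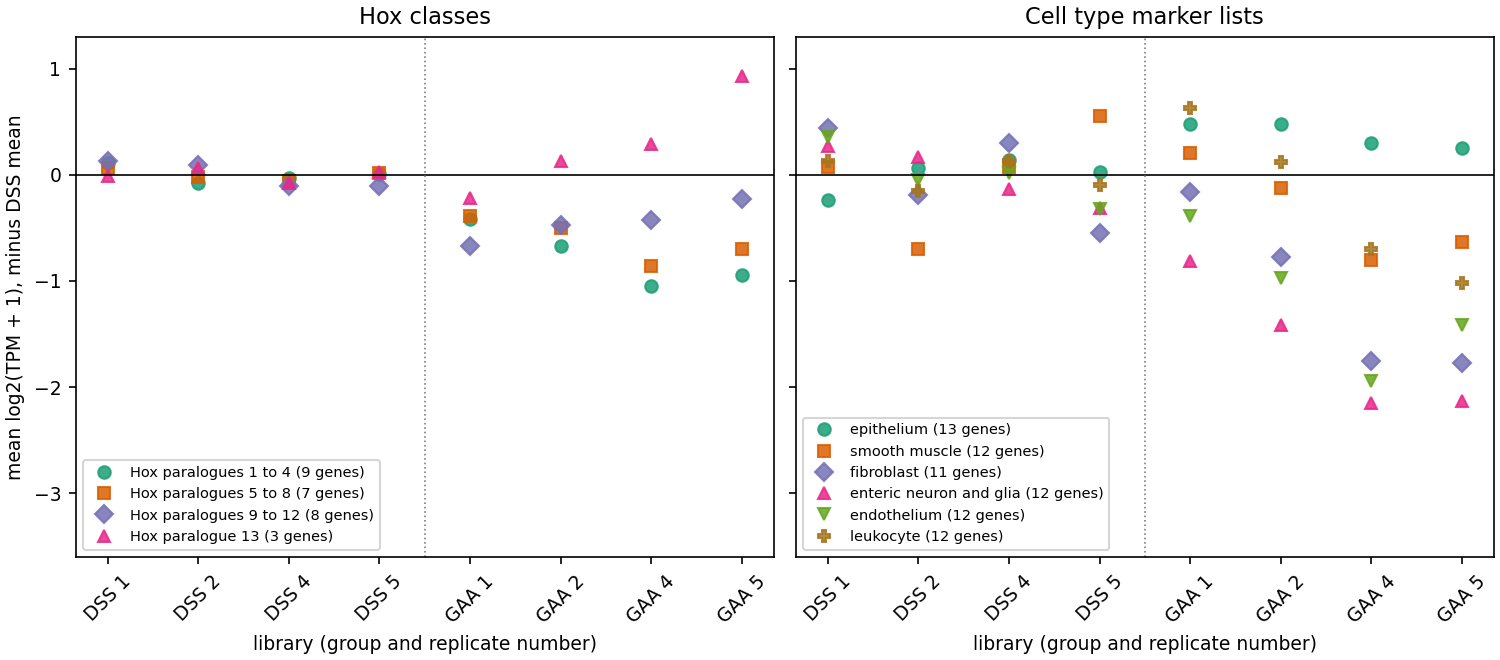
Mean log2(TPM + 1) of each gene set minus its mean over the 4 DSS libraries (y axis), for each library (x axis), with Hox classes in the left panel and cell type marker lists in the right. Every symbol is the mean over the tested genes of 1 set. Paralogues 1 to 4 lie between -1.05 and -0.42 in DSS + GAA and fibroblast markers between -1.77 and -0.17, while epithelial markers lie between 0.25 and 0.48.

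Tissue next to the colon was checked with further lists. Of 11 squamous epithelial genes in the table, Krt5, Krt14, Krt4, Krt6a, Trp63, Krtdap and Lor stayed under 1 TPM in every library, while Sprr1a, a gene of stressed epithelium too, was the most abundant (35.1 ± 19 to 76.8 ± 42 TPM, limma adjusted p = 0.0899). The summed level of the list was 24.9 to 65.7 TPM over the DSS libraries against 50.3 to 136 TPM after GAA, and 1 of its 4 tested genes fell. Of 14 small intestinal enterocyte genes, Apoa4, Apoc3, Sis and Lct stayed under 1 TPM, and the list summed to 233 to 392 TPM over the DSS libraries against 282 to 596 TPM after GAA. In it 3 of 8 tested genes rose and 2 fell, with the ileal bile acid carrier Fabp6 going from 10.2 ± 3.26 to 212 ± 113 TPM and the bile acid transporter Slc10a2 from 135 ± 57.7 to 24.6 ± 10.5 TPM. Of 7 tested skeletal muscle genes 1 fell and 2 rose (23.3 to 34.8 TPM over the DSS libraries against 29.3 to 34.7 TPM after GAA).

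Of 8 tested TALE cofactor genes, the partners of Hox proteins, 3 fell and 0 rose, where 28.2% of all tested genes fell, so the count is not set apart from the background, and the median log2 fold change was -0.62 against -0.25 for all genes. Pbx3 measured 37.8, 24.9, 31.4 and 34.5 TPM in the DSS libraries and 20.0, 16.9, 13.3 and 11.2 TPM in the DSS + GAA libraries, without overlap (log2 fold change -1.03 ± 0.19, limma adjusted p = 0.00732). Meis2, named after its value was seen, fell too (27.3 ± 5.49 to 12.1 ± 6.25 TPM, limma adjusted p = 0.0193). Pbx2, the most abundant of the list by its mean over all libraries, did not pass (limma adjusted p = 0.155). Under the 3 other scalings, or with DSS replicate 1 left out, 1 fell, and 6 fell without DSS + GAA replicate 1.

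Chromatin regulators of Hox clusters are listed for their levels, since the calls over the 3 lists were near the share of all tested genes called lower, 28.2%. Of 12 Polycomb repressive complex 1 genes 5 fell, among them Bmi1 (48.8 ± 7.46 to 28.3 ± 6.84 TPM) and Cbx7 (19.3 ± 4.62 to 10.4 ± 0.991 TPM). Of 9 genes of Polycomb repressive complex 2, which methylates histones at silent Hox genes, 1 fell, the histone-binding subunit gene Rbbp4 (76.9 ± 6.39 to 58.5 ± 5.11 TPM, limma adjusted p = 0.0258). Its partner Rbbp7 did not pass (limma adjusted p = 0.052). Of 9 Trithorax and demethylase genes 2 fell, Kmt2a, the methyltransferase that keeps Hox genes active (14.1 ± 1.51 to 9.59 ± 0.587 TPM), and the demethylase gene Kdm6b (22.1 ± 3.14 to 15.8 ± 1.26 TPM), while Dpy30, the most abundant of these, did not pass. None rose in any of the 3 lists. The count of Polycomb repressive complex 1 genes was 2 or 3 when replicate 1, 4 or 5 of DSS, or 2 or 4 of the other group, was left out, and the other 2 lists had 0 without DSS replicate 1. Under trimmed mean scaling and median centring no gene of these 3 lists fell, and 1 and 3 Polycomb repressive complex 1 genes rose; quantile normalization left 1 lower and 2 higher, all of that complex.

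Retinoic acid, the vitamin A product that switches on Hox genes of low paralogue number in the embryo, had 6 of 13 tested pathway genes fall and 0 rise, against 28.2% and 5.96% of all tested genes, and 5 to 8 fell in every alternative run, with 1 rising under trimmed mean scaling and under median centring. The synthesis enzyme gene Aldh1a3 measured 125, 127, 112 and 235 TPM in the DSS libraries and 50.6, 27.9, 9.41 and 10.6 TPM in the DSS + GAA libraries (log2 fold change -2.81 ± 0.49, limma adjusted p = 0.00636). The retinol dehydrogenase gene Rdh10 went from 105 ± 17.2 to 51.2 ± 11.5 TPM, and Cyp26b1, which degrades retinoic acid, from 3.14 ± 0.597 to 0.943 ± 0.359 TPM. Aldh1a3 and Rdh10 of synthesis and Cyp26b1 of breakdown thus all fell, though Cyp26b1 lay under 1 TPM in DSS + GAA replicates 2 and 4. The synthesis genes Aldh1a1 (limma adjusted p = 0.155) and Aldh1a2 (limma adjusted p = 0.099) did not pass. Cyp26a1 had too few libraries at 1 TPM or more to be tested.

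Regional transcription factors of gut epithelium gave calls in both directions. Of 9 tested, 1 rose and 1 fell, and 3 rose without DSS + GAA replicate 1. Hnf4a, a factor of enterocyte identity, measured 137, 116, 232 and 165 TPM in the DSS libraries and 273, 300.4, 324 and 363 TPM in the DSS + GAA libraries, without overlap (log2 fold change 0.99 ± 0.21, limma adjusted p = 0.00953). Sox2, a foregut factor also used by glia, fell at low level from 2.01 ± 0.473 to 1.01 ± 0.416 TPM (limma adjusted p = 0.039). No gene of the list fell under the 3 other scalings, or when any 1 DSS library or replicate 2 or 4 of DSS + GAA was left out. The caudal factors that act upstream of posterior Hox genes, named after their values were seen, did not pass. Cdx1 measured 109, 128, 139.8 and 93.1 TPM in the DSS libraries and 77.8, 173, 244 and 249.5 TPM in the DSS + GAA libraries (limma adjusted p = 0.244), and Cdx2 37.2, 30.9, 46.2 and 39.4 TPM in the DSS libraries and 12.5, 22.9, 24.3 and 43.1 TPM in the DSS + GAA libraries (limma adjusted p = 0.12). For both, replicate 1 was the lowest DSS + GAA library, as it was for Hoxb13. Gata4, Gata5, Onecut2 and Pdx1, factors of stomach, pancreas or small intestine, stayed under 1 TPM in every library.

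Mesenchymal transcription factors of the gut fell in 6 of 11 tested genes, and 0 rose, against 28.2% and 5.96% of all tested genes. Foxf1, a factor of gut mesenchyme, went from 103 ± 26.7 to 33.2 ± 21.1 TPM (limma adjusted p = 0.0111), and Nr2f2 from 27.6 ± 4.17 to 18 ± 0.532 TPM (limma adjusted p = 0.011). This count was 1 or 2 under the 3 other scalings, which called 1308 to 1648 of all 14217 genes lower, and 3 without DSS replicate 1, DSS replicate 4 or DSS + GAA replicate 4.

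Among 11 tested genes next to the clusters, 3 were called lower, near the 28.2% of all tested genes, and 1 under quantile normalization. Evx1, the homeobox gene beyond Hoxa13, measured 1.33, 1.5, 1.49 and 1.6 TPM in the DSS libraries and 0.223, 0.159, 0.595 and 0.515 TPM in the DSS + GAA libraries. It met the filter through the DSS libraries alone, where it is higher, so its call is not read as a result. Evx2, which has the same place beyond Hoxd13, was named after its value was seen and went from 6.34 ± 1.49 to 2.82 ± 0.924 TPM (limma adjusted p = 0.0139). Calcoco1, near the Hoxc cluster, went from 37.3 ± 12.7 to 16.3 ± 2.79 TPM, and Hibadh, the most abundant of these, did not pass (103 ± 10.9 to 138 ± 34.5 TPM).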

How the data were processed

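RNA of 8 colon samples was sequenced from poly(A) libraries on an MGI-T7 instrument, per the labels' protocols. The authors deposited 1 table of TPM values for 18262 genes, each library summing to 1000000, beside their own log2 fold change, p-value and false discovery rate; the sources used here do not name the test. Trimmomatic, HISAT2, Bowtie2, SAMtools, GATK, Subread, featureCounts and edgeR, with build mm10, are named per the submitters' processing notes, without their roles. Depth is unknown, so no count test, interval of counts or detection floor was computed.

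Genes with at least 1 TPM in at least 4 libraries (14217) were compared on the log2(TPM + 1) scale with limma 3.58.1 (R 4.3.3, statmod 1.5.0), group as sole term, with empirical Bayes moderation (trend and robust options on). Fold changes on this scale understate changes of low genes. P-values are two-sided. Positions are from GENCODE vM21 (GRCm38), which held all 31 Hox genes. The members and lists were chosen with earlier results of these data known. Genes given in full were the 12 called Hox genes with the smallest adjusted p, the highest of each cluster, paralogue 13 and non-overlapping risers; each list gave its 2 smallest p and its most abundant gene. Some genes that this rule names are not reported here. In data simulated over 14057 genes, limma called 60 of 100 genes given a log2 change of 1 and 95 of 100 given 2. It also called 8 of 13857 that were left as they were. The changed genes were drawn from those of higher level alone, with signs at random. They were a far smaller share than the 34.1% of genes called in the data, most of which were lower. These rates thus do not cover low genes such as Hoxa4, Hoxd3 and Hoxd9, nor a comparison with so many changes.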

Additional observations from a re-analysis of the deposited data

Results flagged for a closer look

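Dixon's test at the 95% level was applied to the highest and lowest library of each group of 4. It marked 3 of 54 groups of the 27 tested Hox genes, where chance marks about 1 in 20. Hoxd13 in DSS + GAA replicate 5 was at 129.6 TPM, far above the other 3 libraries of its group (37.8 to 42.8 TPM), and that library also had the highest Hoxa13 and Hoxb13 of all 8. Hoxa13 in DSS replicate 2 was at 59.8 TPM, below the other DSS libraries (84.0 to 87.9 TPM). Hoxd8 in DSS replicate 1 was at 5.44 TPM, above the others (3.37 to 3.62 TPM).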

How the results depend on the processing

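The fit was repeated with 3 other pseudocounts, 3 other filters, 3 scalings, array weights, no trend or robust option, a block for replicate number, the table without haemoglobin and mitochondrial genes, and each library left out in turn. The count of 13 lower Hox genes was 6 (of 16 tested) at a filter of 5 TPM. It was 4 under trimmed mean scaling, 3 under quantile normalization and 4 under median centring, and ranged from 5 to 16 when a library was left out. Over all genes the lower count of 4006 was 2980 (of 11266 tested) at that filter. It ranged from 1308 to 1648 under the 3 scalings and from 1921 to 4572 when a library was left out. The count of 1 higher Hox gene was 4, 2 and 4 under these scalings and 3 with array quality weights, and ranged from 0 to 3 when a library was left out. Each of the 6 omissions that left 0 by limma's adjusted p left 1 or 2 at an unadjusted p under 0.05. The share of all genes at that unadjusted mark is not given here, so these counts are not read as a result. Over all genes the higher count of 847 was 1677 to 2165 under these scalings and 1165 with array quality weights. It ranged from 388 to 1308 when a library was left out. Trimmed mean scaling moved summed TPM in DSS to 54.8 (paralogues 1 to 4), 93.3 (5 to 8) and 366 (9 to 13), and to 74.4 in DSS + GAA (5 to 8). The replicate block gave 13 lower and 1 higher Hox genes, the same 14. Same-numbered libraries deviated together with r from -0.11 to 0.18, above 0.1 in 2 of 4 pairs. Of 8 libraries, 4 correlated best with the library of the other group that bears their own number. With 4 pairs, these values cannot decide whether equal numbers mark paired libraries. Signs turned for genes that did not pass. Under trimmed mean scaling the log2 fold changes were 0.064 (Hoxa2), 0.21 (Hoxa9), 0.12 (Hoxa11), 0.090 (Hoxb9) and 0.0050 (Hoxd12). Under quantile normalization they were 0.23 (Hoxa2), 0.12 (Hoxa3), 0.18 (Hoxa9), 0.080 (Hoxa11), 0.036 (Hoxb9) and 0.25 (Hoxd12). Median centring gave 0.14 (Hoxa2), 0.035 (Hoxa3), 0.25 (Hoxa9), 0.16 (Hoxa11), 0.13 (Hoxb9) and 0.14 (Hoxd12). Array quality weights gave 0.037 (Hoxa9) and 0.051 (Hoxb9), and removal of mitochondrial and haemoglobin genes -0.0038 (Hoxa10). With a library left out, Hoxa9 ranged from -0.20 to 0.16, Hoxa10 from -0.035 to 0.086 and Hoxb9 from -0.47 to 0.30. The cause of these changes was not tested.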
